A study of Mus musculus with 7 samples.

Results

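Late red cells are described here from single-cell RNA libraries of mouse liver, as barcodes in which hemoglobin messages made up nearly all of the RNA counted. They were chosen by their own measured values. A barcode counted as a late red cell if it held more than 1000 unique molecular identifiers (UMIs, each standing for 1 captured RNA molecule), if at most 20% of its UMIs came from mitochondrial genes, and if at least 80% came from the genes whose symbols begin with Hba- or Hbb-. Of 100676 barcodes that passed the first pair of limits in all 7 libraries, 5032 were late red cells. Their high hemoglobin share is therefore the selection and not a result.

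The libraries were made from liver tissue of the ABC-Myc mouse, a model of hepatoblastoma, an embryonal liver cancer of childhood, and of control mice. ABC-Myc animals carry Alb-Cre, a Cre recombinase driven by the albumin enhancer and promoter and so active in the hepatocyte lineage, and CAG-MYC, a human MYC that the CAG promoter drives once Cre has removed a STOP cassette flanked by loxP sites. The background strain is C57BL/6J, and the study describes its controls as littermates that lack at least 1 of the transgenes. The livers were perfused with buffered saline containing EDTA and then with collagenase, steps that the study describes for the ABC-Myc mouse. Droplet libraries were made with the 10x Genomics 3' kit, without a stated step to lyse red cells. Ages of the mice behind these libraries were not given in the sources used here. In the study's text the tumors are NEJ634, NEJ687, NEJ709 and NEJ723, while the 3 normal livers of its single-cell data are not named. NEJ638, NEJ654 and NEJ677, the other 3 libraries, were taken to be those, and these are called tumor and control libraries below. The deposited labels give the same disease state to every library, so the grouping rests on that text and not on the labels, the libraries were not treated as replicates, and no test between groups was run. Values that follow each other without a library name are in the order NEJ634, NEJ687, NEJ709 and NEJ723 for tumor libraries, and NEJ638, NEJ654 and NEJ677 for control libraries, and where both sets stand in 1 sentence the tumor libraries come first.

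Red cells form from nucleated erythroblasts that fill with hemoglobin, stop dividing, lose the nucleus and become reticulocytes, which still carry RNA for a time before they mature. Hemoglobin is built from alpha and beta globin chains, each holding a heme group with an iron atom, and its supply of heme, iron and chains is kept in balance. The fetal liver is the main site of red cell formation before birth, and blood formation moves to the bone marrow around birth. Mature red cells reach any liver sample with the blood.

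The libraries held from 40214395 to 132485391 UMIs in all, and those of the late red cells outside the globin genes, on which most values here rest, numbered 47521, 595935, 177163 and 1080702 in the tumor libraries and 286796, 130565 and 262466 in the controls. Levels are given as UMIs per 1000000 UMIs outside the Hba- and Hbb- genes (CPM), summed over the late red cells of a library, so 1 UMI was worth 21.04 CPM in NEJ634 and 0.925 CPM in NEJ723. Intervals in parentheses are exact at 95% and cover counting error only. Free RNA was read from the barcodes ranked 45000 to 90000 by UMIs, called the ambient profile. In NEJ634 such barcodes held 210 to 952 UMIs and passing barcodes had a median of 1640 UMIs. Its passing barcodes were thus not shown to be cells alone. In the other libraries the largest of such barcodes held 90 to 460 UMIs. The ambient profile of NEJ634 may therefore hold RNA of cells, and calls against it are less sure. In NEJ709 only 1619 of 21482 passing barcodes had under 20% hemoglobin, 210 had 50% to under 80% and 183 had more. Most thus lay between 20% and 50%. Hbb-bs alone made up 21.2% of its ambient UMIs, against 0.874 to 7.93% in the other libraries. The passing barcodes of NEJ709 were thus not shown to be cells alone either. The description of NEJ709 names NEJ634, and the series' design text speaks of nuclei where the labels and methods describe single cells. From 8 to 237 passing barcodes were shared by a pair of libraries, 237 of them by NEJ634 and NEJ709, but no barcode was a late red cell in more than 1 library. Late red cells that also passed in another library numbered 0, 23, 5 and 35 in the tumor libraries and 34, 4 and 15 in the controls.

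Late red cells were found in all 7 libraries, and whether their share separated tumor from control libraries depended on the hemoglobin limit. They numbered 76, 1076, 183 and 1500 in the tumor libraries and 1141, 329 and 727 in the controls. As a share of passing barcodes this was 0.187% in NEJ634 (0.147 to 0.234), 14.3% in NEJ687, 0.852% in NEJ709 and 12.4% in NEJ723, and 17.9%, 5.80% and 10.6% in the control libraries. At the limit of 80% the groups overlapped: the lowest and the second lowest shares belonged to tumor libraries, and the other tumor libraries lay among the controls. The lowest shares, of NEJ634 and NEJ709, are over passing barcodes that were not shown to be cells alone. With at least 85% hemoglobin they overlapped too, at 0.111, 10.9, 0.521 and 2.61% and 14.3, 5.29 and 9.87%. With at least 90% every tumor library lay below every control, at 0.0172, 3.44, 0.140 and 0.00826% against 5.16, 4.25 and 8.05%, from 7, 259, 30 and 1 cells in the tumor libraries and 329, 241 and 551 in the controls. The counting intervals of NEJ687 (3.04 to 3.88%) and NEJ654 (3.74 to 4.81%) overlapped there. With barcodes that passed in more than 1 library left out, each share stayed within its counting interval.

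Late red cells differed in depth between libraries. The median late red cell held 4435, 4438, 7070 and 4100 UMIs in the tumor libraries and 2086, 5572 and 5381 in the controls. Outside the globin genes it held 588, 539, 916 and 681 UMIs in the tumor libraries and 237, 355 and 316 in the controls. The number of genes seen in the median cell was 291, 251, 298 and 293 in the tumor libraries and 99, 181 and 148 in the controls, and since depths differed no order is read from these numbers. The hemoglobin share was highest in NEJ654 and NEJ677, with medians of 92.5% and 92.7% against 88.4% in NEJ638 and 83.03 to 87.5% in the tumor libraries. Mitochondrial UMIs set NEJ638 apart, with a median of 5.32% against 0.170 to 1.29% in the other 6 libraries, and they made up 47.9% of its non-globin UMIs against at most 11.5% elsewhere.

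**Figure D1:**
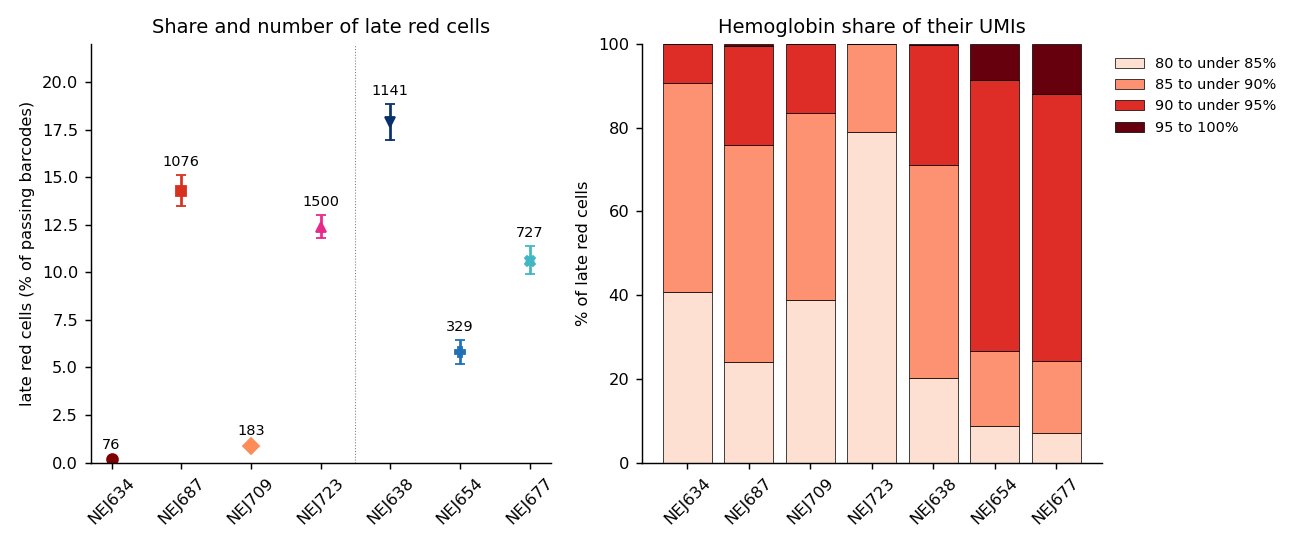
Left, late red cells as a percent of passing barcodes in each library, with exact 95% intervals as bars and the number of cells above each point; the dotted line parts tumor from control libraries. Right, the percent of late red cells in each range of hemoglobin share, where NEJ654 and NEJ677 held most of their cells at 90% or more and NEJ723 had 78.9% at 80% to under 85%.

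At the limit of 80% the cells formed no gap. Barcodes with 79% to under 80% and with 80% to under 81% hemoglobin numbered 241 and 248 in NEJ723, 33 and 36 in NEJ687, and 22 and 45 in NEJ638. In NEJ723 the alpha share of globin UMIs was 23.1% just outside and 23.1% just inside, and Alas2 stood at 8238 and 8410 CPM. The remaining libraries had at most 10 barcodes in either range.

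Markers that the rule did not use describe the cells further. Alas2, which encodes the erythroid form of the first enzyme of heme synthesis, had a UMI in 98.7, 99.2, 99.5 and 99.1% of late red cells in the tumor libraries and in 87.03, 92.4 and 88.6% in the controls. In barcodes with under 20% hemoglobin, which should hold few red cells, the share was 17.9, 17.2, 50.4 and 17.9% and 1.40, 1.53 and 2.83%, at median depths of 1655 to 4420 UMIs. The share was thus higher in late red cells in 7 of 7 libraries. Both sets were cut on hemoglobin share, so a gene of red cells was bound to differ and this is no test of the name. Nor does it part late red cells from erythroblasts that make hemoglobin. Bpgm, the enzyme that makes 2,3-bisphosphoglycerate and so lowers the oxygen affinity of hemoglobin, had a UMI in 64.1 to 93.99% of late red cells and in 3.31 to 32.6% of those other barcodes.

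Markers of the other cell types in the liver lay below their free-RNA levels. Of 8 lists with 55 markers for other cells, the summed levels of hepatocyte, hepatoblast-like tumor cell, neutrophil, macrophage, T and NK cell, B cell, endothelial and platelet markers were each below the ambient level in every library. The hepatocyte markers summed to 813 to 3430 CPM in the tumor libraries, where 2 of 8 were at 0 in each, and to 12347 to 16773 CPM in the controls, where none was at 0. Neutrophil markers stood the other way, at 1996 to 5955 CPM in the tumor libraries and 337 to 347 CPM in the controls. Hepatoblast-like tumor cell markers were at 807 to 4040 CPM and 7.62 to 24.4 CPM. Read against these markers, the ambient profile made up 34.7, 21.5, 12.1 and 48.2% of the non-globin UMIs in the tumor libraries and 66.5, 60.8 and 47.6% in the controls. The 8 lists did not give 1 common ratio within a library, so the shares are rough. In NEJ709 it was 0.0967 for neutrophil and 0.405 for hepatocyte markers. By ambient level the neutrophil list was the largest in each tumor library and the hepatocyte list in each control. Their ratios there were 0.155, 0.188, 0.0967 and 0.364 for neutrophils and 0.730, 0.651 and 0.521 for hepatocytes. The shares of tumor and control libraries thus rest on unlike markers.

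The balance of alpha and beta globin RNA differed between tumor and control libraries. Alpha globins gave 20.1, 21.1, 23.4 and 23.3% of globin UMIs in the tumor libraries and 34.8, 26.6 and 29.1% in the controls, with the widest counting interval in NEJ634, at 19.96 to 20.3%. The groups did not overlap, and the highest tumor library lay 3.18 percentage points below the lowest control. Within a library single cells spread more than that: the middle 90% of cells lay between 18.9% and 29.6% in NEJ709, and between 18.3% and 32.6% in NEJ654. The split also held in barcodes with 50% to under 80% hemoglobin, at 21.8, 21.4, 24.9 and 24.4% in the tumor libraries and 34.4, 25.8 and 29.9% in the controls. In the ambient profiles, which hold globin RNA of any red cell, the groups overlapped at 23.04, 20.6, 23.8 and 24.8% and 28.6, 21.4 and 23.8%.

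Promoters of the adult globin genes are printed because these genes carry nearly all the RNA of the cells. Each line holds the 250 bases upstream of the gene's start, 5′ to 3′ along the gene's own strand, from RefSeq on GRCm38.p6, with matches on either strand to the motif CACCC, the motif CCAAT or the motif AGATAA in capitals. The Hba-a1 and Hbb-bs windows lie at chr11:32283422-32283671 on the plus strand and at chr7:103827929-103828178 on the minus strand. The Hbb-bt window lies at chr7:103813924-103814173 on the minus strand. The build of the count files is not stated, so these coordinates are those of the sequence table.
Hba-a1: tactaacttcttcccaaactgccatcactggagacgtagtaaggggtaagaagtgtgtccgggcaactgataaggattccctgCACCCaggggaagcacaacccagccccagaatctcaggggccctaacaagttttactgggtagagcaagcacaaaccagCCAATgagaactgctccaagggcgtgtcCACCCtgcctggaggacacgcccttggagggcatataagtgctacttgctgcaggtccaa
Hbb-bs: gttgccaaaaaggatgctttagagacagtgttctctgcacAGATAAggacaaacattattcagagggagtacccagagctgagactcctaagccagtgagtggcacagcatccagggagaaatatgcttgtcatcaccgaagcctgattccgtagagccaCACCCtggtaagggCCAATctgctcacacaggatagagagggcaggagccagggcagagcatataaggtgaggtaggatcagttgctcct
Hbb-bt: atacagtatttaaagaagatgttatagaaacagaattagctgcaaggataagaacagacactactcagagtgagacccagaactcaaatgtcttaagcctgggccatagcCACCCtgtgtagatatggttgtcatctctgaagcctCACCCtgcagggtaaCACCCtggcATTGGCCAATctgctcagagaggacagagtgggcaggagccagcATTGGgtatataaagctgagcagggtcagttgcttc

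The CACCC and CCAAT letters are those of boxes known in globin promoters, the first bound by Klf1-type factors, and AGATAA is a GATA form. Other GATA forms were not searched, and the Hba-a1 line holds tgataa in lower case. On either strand CACCC was found in 52% of 32851 mouse promoter windows of this length, CCAAT in 33.8% and AGATAA in 9.99%. In these windows the AGATAA letters were found in Hbb-bs alone among the printed 3, and in Hbb-bt 1 of the CCAAT matches on the other strand touched the match on the printed strand. The Hba-a2 window, not printed, was identical to that of Hba-a1 at 247 of 247 positions after a shift of 3 bases, and Hbb-bs and Hbb-bt were identical at 127 of 249 positions (51%, without gaps).

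Hba-a1 and Hba-a2 encode near-identical chains and share reads, as do Hbb-bs and Hbb-bt, so the split within each pair is uncertain. Any effect of shared reads on the alpha share was not tested. Hba-a2 gave 41.8, 41.6, 40.6 and 40.2% of adult alpha UMIs in the tumor libraries and 43.6, 44.2 and 42.7% in the controls, a narrow band in which the tumor libraries were the lower. Hbb-bt gave 16.4, 12.7, 17.3 and 16.7% of adult beta UMIs in the tumor libraries and 19.2, 16.1 and 16.6% in the controls, and the groups overlapped. The embryonic globins Hba-x, Hbb-y, Hbb-bh1 and Hbb-bh2 had at most 3 UMIs each in a library, tumor or control. Hbq1a, which encodes a theta globin that does not join hemoglobin in quantity, stood at 42.1, 68.8, 50.8 and 96.2 CPM in the tumor libraries and 219.7, 299 and 263 CPM in the controls, without overlap. Its near-identical copy Hbq1b stood at 253, 514, 469 and 773 CPM and 223, 260.4 and 194 CPM, and there the groups overlapped. How reads were split between the copies was not tested.

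**Figure D2:**
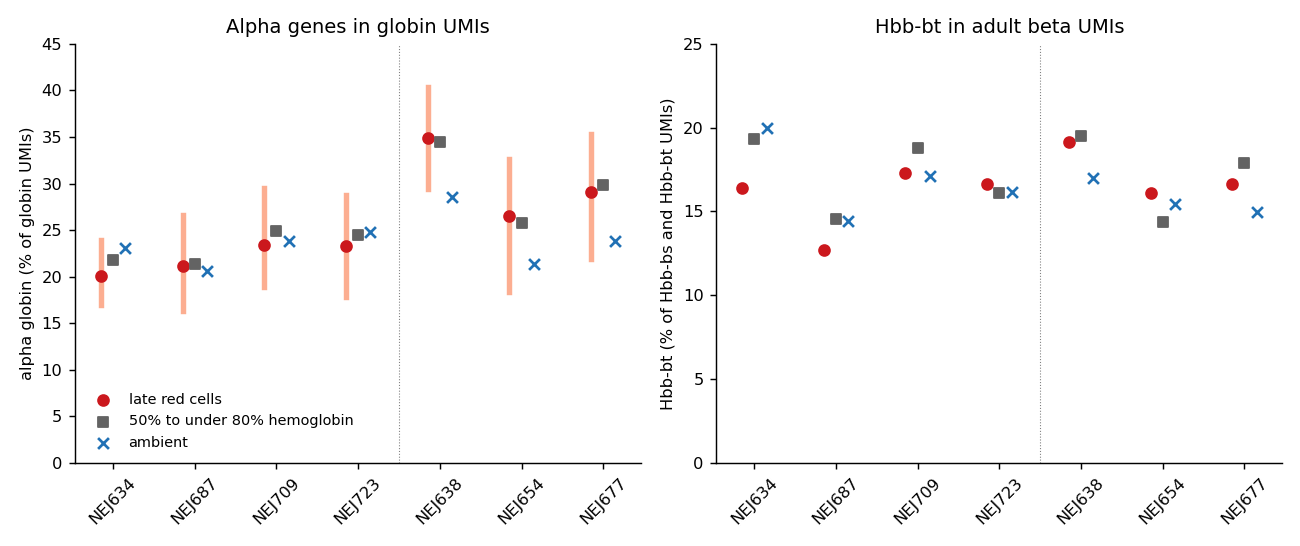
Left, alpha globin as a percent of globin UMIs in each library for late red cells (circles, bars spanning the middle 90% of cells), barcodes with 50% to under 80% hemoglobin (squares) and the ambient profile (crosses). Right, Hbb-bt as a percent of adult beta UMIs. The alpha share of late red cells lay at 20.1 to 23.4% in the tumor and 26.6 to 34.8% in the control libraries, and the Hbb-bt share overlapped.

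Outside the globins, more genes were higher in the tumor libraries than in the controls, by a margin that depended on the total and on the hemoglobin range used. A gene was called apart between the libraries when its lowest level on 1 side lay above its highest level on the other and the medians differed at least 2-fold. Among 1326 genes with a mean of at least 50 CPM over the 7 libraries, 282 were apart with the tumor libraries higher (21.3%) and 88 with the controls higher (6.64%). The median ratio of tumor over control medians over these genes was 1.34, so a gene at a ratio of 1 was low against the rest. It was 2.30 when globin UMIs stayed in the total and 1.11 when mitochondrial UMIs were left out too. In the last setting 204 and 168 of 1507 genes were apart, so the excess on the tumor side was small there. Mitochondrial genes held 47.9% of the non-globin UMIs of NEJ638 and 9.58, 2.59, 11.5, 9.14, 8.25 and 9.55% in NEJ634, NEJ687, NEJ709, NEJ723, NEJ654 and NEJ677. The minimum level also let in genes that were high on 1 side alone, 281 through the tumor libraries, of which 134 were called, and 132 through the controls. Of the 913 genes with a mean of at least 50 CPM on both sides, 148 (16.2%) and 38 (4.16%) were apart. Requiring a level above the ambient profile in every library of the higher side left 166 genes (12.5%) and 13 genes (0.980%). After the ambient profile was subtracted, 279 (30.8%) and 47 (5.19%) of 906 testable genes were apart, at a median ratio of 2.06. The subtracted share rested on unlike markers in tumor and control libraries, so calls after subtraction may be skewed between them. Levels after subtraction were taken over the non-globin UMIs that remained. A gene above its ambient level therefore rose, more so at a larger ambient share. Calls lost or gained after subtraction, here and below, do not tell this rescaling from the removal of ambient RNA. Of 202 genes in 16 lists of red cell biology, 116 were tested, 40 were apart with the tumor libraries higher and 4 with the controls higher.

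The integrated stress response had the highest median ratio of the lists over its tested genes. It is the pathway in which kinases that sense low heme, misfolded protein or lack of amino acids phosphorylate eIF2α, which slows translation and raises the factor ATF4. Of its 10 genes, 6 reached the level needed for the comparison, 4 stood apart with the tumor libraries higher and 0 with the control libraries higher, and the median ratio was 13.8 against 1.34 over all 1326 genes. The 4 of 6 stand beside 21.3% of all genes tested. Of these 6 only Ppp1r15a had a mean of at least 50 CPM on both sides, and 4 passed through the tumor libraries alone, so the count and the median describe these genes and are no support. Ppp1r15a, which encodes the GADD34 subunit of the phosphatase that reverses eIF2α phosphorylation, stood at 737, 4442, 5057 and 2935 CPM in the tumor libraries and 160.4, 153 and 99.1 CPM in the controls. The ratio of the medians was 24.1 and the groups were far apart, although NEJ634 rested on 35 UMIs (513 to 1024 CPM). Ddit3, the CHOP transcription factor, stood at 84.2, 661, 389.5 and 520.0 CPM in the tumor libraries and 6.97, 7.66 and 15.2 CPM in the controls, from only 4 UMIs in NEJ634. Atf4, the transcription factor at the center of the response, stood at 147, 549, 367 and 294 CPM and 45.3, 30.6 and 49.5 CPM, and in NEJ634 it was not above the ambient level.

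Eif2ak1, the heme-regulated kinase HRI that phosphorylates eIF2α in red cell precursors, stood at 105, 567, 525 and 249.8 CPM in the tumor libraries and 41.8, 30.6 and 41.9 CPM in the controls. The ratio was 9.26, and NEJ634 was the lowest tumor library here, as it was for Ppp1r15a, Ddit3 and Atf4. Trib3, a pseudokinase target of the response named here after its values were seen, stood at 0, 282, 248 and 170.3 CPM, with 0 UMIs in NEJ634 (up to 77.6 CPM) and in the 3 control libraries, so it was not called apart. Among cells with 85% to under 90% hemoglobin, Ppp1r15a, Ddit3 and Eif2ak1 were not apart. For Ppp1r15a this rested on NEJ634, at 239.7 CPM from 38 cells, while the other tumor libraries stood at 2159 to 3639 CPM. Atf3, a stress-induced factor and the last of the tested genes, overlapped and lay the other way, at 105, 26.9, 11.3 and 30.5 CPM in the tumor libraries and 27.9, 146 and 68.6 CPM in the controls (ratio 0.418). Atf5, a factor of the same family, is outside the list and was named after its values were seen, at 358, 826, 644 and 582 CPM in the tumor libraries and 38.4, 30.6 and 41.9 CPM in the controls.

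Among the genes with the largest ratios, several were seen at or below the ambient level, and others were not. Of the 10 genes with the largest ratio in favor of the tumor libraries, H19, Igf2 and Afp are active in fetal liver and hepatoblast-like cells, and Camp encodes the neutrophil peptide cathelicidin. H19 stood at 2041, 723, 361 and 50.9 CPM and 24.4, 7.66 and 7.62 CPM, while Igf2 and Afp had 0 UMIs in all 3 control libraries and stood at 217 to 1284 and 136 to 716 CPM in the tumor libraries, with medians at least 44.01-fold and 29.04-fold higher against a floor of 3 UMIs per library. None of these 4 was above its ambient level in every tumor library. After ambient subtraction H19, Igf2 and Afp were still apart, at ratios of 8.06, 8.17 and 5.47. H19 was no longer so with the ambient profile free of shared barcodes, and Camp was below the minimum level. H19, Igf2 and Afp are hepatoblast-like tumor cell markers and among the markers that set the subtracted share. Markers of this kind summed to 0.787, 0.258, 0.674 and 0.576 of their ambient level in the tumor libraries. The subtracted shares were lower, at 34.7, 21.5, 12.1 and 48.2%. A residue was thus bound to remain for that list as a whole. The ratios after subtraction therefore do not show expression of H19, Igf2 and Afp in late red cells. The other 6 of the 10 genes were Ddit3, Tfrc, Snhg1, Gtpbp2, Cnppd1 and Ppp1r15a. Snhg1, a host gene of small nucleolar RNAs, stood at 189, 1312, 1417 and 1518 CPM in the tumor libraries and 83.7, 22.98 and 41.9 CPM in the controls. Gtpbp2, which helps to free stalled ribosomes, stood at 189, 290.3, 271 and 162 CPM and 3.49, 7.66 and 11.4 CPM, and Cnppd1 at 42.1, 409, 497 and 432 CPM and 17.4, 7.66 and 15.2 CPM. With cells thinned to 1000 UMIs Gtpbp2 and Cnppd1 were not apart, and Cnppd1 was not among cells with 85% to under 90% hemoglobin.

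Gng5, Eif3c and Cldn13 are named here after their values were seen, as genes with large ratios that were above ambient in every tumor library. Gng5, a gamma subunit of G proteins, had the highest level of these, at 2820, 5789, 4510 and 5057 CPM in the tumor libraries against 307, 506 and 343 CPM in the controls. Eif3c, a subunit of the translation initiation factor eIF3, stood at 484, 832, 858 and 712 CPM and 38.4, 53.6 and 80.01 CPM. Cldn13, a claudin known from mouse erythroid cells, stood at 63.1, 354, 186 and 139 CPM and 13.95, 7.66 and 3.81 CPM, from 4, 1 and 1 UMIs in the controls. Cldn13 rested on 3 UMIs in NEJ634, with a counting interval that overlaps that of NEJ638, and it was not apart among cells with 85% to under 90% hemoglobin. Gng5 and Eif3c were apart under every alternative tested. The ratios of Gng5, Eif3c and Cldn13 were 13.95, 14.4 and 21.2.

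In heme synthesis Cpox and Urod were apart, Alas2 and Fech were not called, and the calls of Uros and Ppox hung on 1 UMI each in NEJ634. Of the 7 enzymes listed, 7 reached the level needed for the comparison, 4 stood apart with the tumor libraries higher and 0 with the control libraries higher, and the median ratio was 5.96 against 1.34 over all 1326 genes. The 4 of 7 stand beside 21.3% of all genes tested. Alas2 stood at 11742, 15196, 12441 and 9378 CPM in the tumor libraries and 8752, 12293 and 12158 CPM in the controls, and Fech, which inserts iron into the finished ring, at 1894, 1940, 2026 and 1348 CPM and 2047, 2459 and 2694 CPM. Alas2 overlapped, whereas each control library lay above each tumor library for Fech, at a ratio of 0.780 that fell short of 2-fold. For Fech the counting intervals of NEJ638 (1885 to 2219 CPM) and NEJ709 (1822 to 2247 CPM) overlapped. With globin UMIs kept in the total its ratio was 1.28. Urod stood at 421, 1381, 1101 and 851 CPM in the tumor libraries and 185, 107 and 164 CPM in the controls, a ratio of 5.96. Cpox and Ppox, which act in mitochondria on the last porphyrin steps before Fech, stood at 337, 679.6, 333 and 155 CPM and 21.04, 415, 186 and 189.7 CPM in the tumor libraries, and at 31.4, 45.95 and 41.9 CPM and 17.4, 0 and 7.62 CPM in the controls. Uros stood at 21.04, 206, 107 and 89.8 CPM and 6.97, 0 and 0 CPM. In NEJ634 Uros and Ppox each rested on 1 UMI, which is within what 0 UMIs in NEJ654 allow (3 UMIs, or 22.98 CPM). Alad overlapped at 21.04 to 178 CPM and 17.4 to 76.6 CPM. With a library at 0 set to 3 UMIs for the overlap too, neither was apart. Among cells with 85% to under 90% hemoglobin Urod was not apart. Of the 7 enzymes, 4 passed the minimum level through the tumor libraries alone, so the count and the median above are no support. The other 3 had a mean of at least 50 CPM on both sides. Of these, 1 was apart, beside 16.2% of all genes at that level. The median ratio of the 3 was 0.995, against 1.20 over all genes at that level. After ambient subtraction Ppox was no longer apart, and Fech was apart with the controls higher at a ratio of 0.447, against 2.06 over all genes. Fech was above its ambient level in 7 of 7 libraries, so the rescaling raised it and that call is no support.

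Genes of iron supply mostly did not separate the libraries. Of the 16 genes, 9 reached the level needed for the comparison, 1 stood apart with the tumor libraries higher and 0 with the control libraries higher, and the median ratio was 1.05 against 1.34 over all 1326 genes. The 1 of 9 stands beside 21.3% of all genes. Tfrc, the receptor that brings transferrin iron into the cell, was the gene apart, at 484, 965, 852 and 476 CPM in the tumor libraries and 241, 15.3 and 19.1 CPM in the controls. NEJ638 lay much nearer to the tumor libraries than NEJ654 and NEJ677 did. After ambient subtraction and rescaling Tfrc was no longer apart, at 579 CPM in NEJ638 and 577 CPM in NEJ634. Its ambient level in NEJ638 was 45.9 CPM. The ferritin chains Fth1 and Ftl1, which store iron, overlapped at 3816 to 9419 and 8607 to 21093 CPM in the tumor libraries and 4630 to 10095 and 8089 to 16275 CPM in the controls. Slc25a37, the mitoferrin that carries iron into mitochondria, stood at 2862, 3155, 2094 and 1221 CPM and 4177, 1363 and 1570 CPM and overlapped as well. Slc25a39, a carrier of glutathione into mitochondria, overlapped too, at 1322 to 1876 CPM and 1813 to 2259 CPM. After ambient subtraction it was apart with the controls higher, at a ratio of 0.481. Slc25a39 was above its ambient level in 7 of 7 libraries, so the rescaling raised it and that call is no support.

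The membrane and skeleton of the red cell gave the largest number of genes apart. Of 24 genes, 20 reached the level needed for the comparison, 13 stood apart with the tumor libraries higher and 1 with the control libraries higher, and the median ratio was 4.36 against 1.34 over all 1326 genes. Over all genes tested 21.3% and 6.64% were apart in these directions. Slc4a1, the band 3 anion exchanger, stood at 1494, 3455, 4228 and 3131 CPM in the tumor libraries and 809, 689 and 716 CPM in the controls. Ank1, the ankyrin that ties band 3 to spectrin, stood at 147, 485, 615 and 387 CPM and 48.8, 38.3 and 45.7 CPM. Epb42, protein 4.2 of the same complex, stood at 189, 735, 706 and 335 CPM and 76.7, 68.9 and 53.3 CPM. The ratios of the medians were 4.60, 9.53 and 7.55, each without overlap. The spectrin chain Sptb, the adducins Add1 and Add2, Dmtn (dematin) and Tmod1 (tropomodulin), all of the skeleton, were apart with ratios of 3.43, 2.23, 8.11, 4.38 and 5.02. The minimum level was passed through the tumor libraries alone by 10 of the 20 tested genes, Gypc, Dmtn and Ermap among them. Of the other 10, 5 were apart with the tumor libraries higher and 1 with the controls higher. Over all genes at that level 16.2% and 4.16% were apart. The median ratio of these 10 was 2.58, against 1.20 over all genes at that level. Of the 13, only Ank1 and Epb42 were also apart among cells with 85% to under 90% hemoglobin, where Ermap and Dmtn were below the minimum level and the other 9 were not apart. Add1 was also lost without NEJ687 or NEJ709.

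Of the blood group and surface proteins, Gypc, Rhd, Ermap, Cd47 and Tspan33 were apart with the tumor libraries higher, at ratios of 7.51, 5.42, 4.35, 3.20 and 4.37. Rhd and Ermap were below the ambient level in NEJ709, at 198 and 73.4 CPM against 229.9 and 164 CPM. Cd47, which protects cells from being engulfed, stood at 316, 747, 429 and 377 CPM in the tumor libraries and 112, 184 and 126 CPM in the controls. Gypc rested on 1, 2 and 3 UMIs in the controls, whose upper counting limits of 19.4, 55.3 and 33.4 CPM stand beside 42.1, 143, 79.02 and 92.5 CPM in the tumor libraries. Tspo2, an erythroid member of the translocator protein family, stood at 779, 1087, 677 and 1157 CPM and 541, 620.4 and 465 CPM and was not called. Epb41 (protein 4.1) and Bsg (basigin) had ratios of 1.66 and 1.64 and were not called. Aqp1, the water channel, was apart with the controls higher, at 42.1 to 74.03 CPM and 115 to 164 CPM. It was apart in 10 of 19 alternatives that tested it, and not without NEJ634, NEJ709 or NEJ677. Aqp1 is also made by liver endothelium, whose markers were at 65.4 to 87.9 CPM in the tumor libraries and 536 to 754 CPM in the controls, and the part of that RNA was not tested. After ambient subtraction and rescaling 6 of 19 genes were apart with the tumor libraries higher, which is near the 30.8% of all genes. Slc4a1 rose from 809 to 2200 CPM in NEJ638, where its ambient level was 15.4 CPM, and from 1494 to 2023 CPM in NEJ634. The calls lost here thus do not show that the RNA was ambient. Slc4a1, Sptb, Add1, Add2, Dmtn, Rhd and Tspan33 were not among the 6, nor was Tmod1 with the ambient profile free of shared barcodes. Add2 and Tspan33 were not apart without mitochondrial UMIs, and Gypc, Rhd, Tmod1 and Add2 not with cells thinned to 1000 UMIs.

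The redox list was near the background of all genes. Of 11 genes of redox defence and globin chaperoning, 8 reached the level needed for the comparison, 2 stood apart with the tumor libraries higher and 0 with the control libraries higher, and the median ratio was 1.36 against 1.34 over all 1326 genes. Gpx1, which reduces hydrogen peroxide with glutathione, stood at 16351, 25103, 20044 and 16412 CPM in the tumor libraries and 8110, 10516 and 7666 CPM in the controls. Gclm, a subunit of the enzyme that starts glutathione synthesis, stood at 1662, 3880, 2534 and 1669 CPM and 481, 567 and 720.1 CPM. Both were apart, which at 25% of the list is close to the 21.3% over all genes. Gpx1 was not apart without mitochondrial UMIs, after ambient subtraction or without NEJ677. Prdx2 and Blvrb, the peroxiredoxin and the biliverdin reductase of red cells, were not called, at 5324 to 12131 and 2609 to 6385 CPM in the tumor libraries and 3274 to 4587 and 1144 to 2436 CPM in the controls.

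Late red cells clear their organelles and remodel their proteins through mitophagy and ubiquitin, and the genes of this list had among the highest levels of all. Of 24 genes, 16 reached the level needed for the comparison, 4 stood apart with the tumor libraries higher and 0 with the control libraries higher, and the median ratio was 1.22 against 1.34 over all 1326 genes. Bnip3l, the NIX receptor for the removal of mitochondria, was nearly level at 4335, 4876, 4674 and 2943 CPM in the tumor libraries and 4498, 4526 and 4362 CPM in the controls. Ubb, which encodes ubiquitin, stood at 16687, 35460, 18683 and 15756 CPM and 7898, 18841 and 14383 CPM, and Mkrn1 at 7307 to 14117 CPM and 4491 to 10550 CPM. These overlapped. Ube2o, the conjugating enzyme that remodels the reticulocyte proteome, stood at 2020, 3786, 4459 and 3232 CPM in the tumor libraries and 767, 1003 and 1387 CPM in the controls and was apart. Ube2h, Fbxo7 and Sqstm1 (the p62 autophagy receptor) were apart as well, at ratios of 2.63, 4.92 and 5.96. The 4 of 16 apart stand beside 21.3% of all genes. Ube2h was not apart without mitochondrial UMIs, after ambient subtraction, without NEJ687 or without NEJ709. Neither Ube2h nor Fbxo7 was apart among cells with 85% to under 90% hemoglobin, and Fbxo7 was not with cells thinned to 1000 UMIs.

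Of 19 late erythroid genes of other roles, 13 reached the level needed for the comparison, 7 stood apart with the tumor libraries higher and 0 with the control libraries higher, and the median ratio was 2.45 against 1.34 over all 1326 genes. The 7 of 13 stand beside 21.3% of all genes tested. Tent5c and Isg20 were among the 4 highest and were not called, at 5508 to 7874 and 4109 to 7330 CPM in the tumor libraries and 3761 to 5166 and 2005 to 3768 CPM in the controls. Car2, carbonic anhydrase 2, was apart at 3367, 6400, 4730 and 2110 CPM and 1391, 1088 and 1402 CPM. Tmcc2 was apart by more, at 589, 2150, 2636 and 1185 CPM and 241, 176 and 164 CPM. The other 5 apart were Rbm38, Slfn14, Cpeb4, Pim1 and Mxi1, at ratios of 2.73, 7.87, 3.27, 2.42 and 2.45, and Rbm38 turned to the other direction, at 0.911, when only cells with 85% to under 90% hemoglobin were used. Tmcc2, Cpeb4 and Pim1 were not apart there either. After ambient subtraction 2 of 12 genes were apart, below the 30.8% of all genes, and Rbm38, Slfn14, Cpeb4, Pim1 and Mxi1 were not among them. Without mitochondrial UMIs Rbm38, Slfn14, Car2, Cpeb4 and Pim1 were not apart, and Pim1 was not above its ambient level in every tumor library.

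Transcription factors and division genes had low levels in these cells, E2f2 aside. Of 14 erythroid factors, 5 reached the level needed for the comparison, 3 stood apart with the tumor libraries higher and 0 with the control libraries higher, and the median ratio was 4.17 against 1.34 over all 1326 genes. Over all genes tested 21.3% were apart with the tumor libraries higher. E2f2, which acts in the last divisions of erythroblasts, had the highest level, at 631, 1123, 1225 and 1047 CPM in the tumor libraries and 255, 260.4 and 320.0 CPM in the controls. Nfe2, a factor of late globin expression, stood at 84.2, 136, 95.96 and 74.03 CPM and 10.5, 15.3 and 7.62 CPM, and Zfpm1 (FOG1, the partner of GATA1) at 63.1, 191, 102 and 64.8 CPM and 13.95, 7.66 and 45.7 CPM. All 3 were apart. Nfe2 and Zfpm1 passed the minimum level through the tumor libraries alone, and of the 3 factors over it on both sides 1 was apart, beside 16.2% of all genes at that level. Nfe2 was not apart with cells thinned to 1000 UMIs. Zfpm1 was not above its ambient level in every tumor library and was not apart after ambient subtraction. Foxo3 and Lmo2 were not called, at 63.1 to 401 and 199.9 to 581 CPM against 72.4 to 80.2 and 153 to 216 CPM.

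Of 20 cell cycle genes, 7 reached the level needed for the comparison, 2 stood apart with the tumor libraries higher and 0 with the control libraries higher, and the median ratio was 2.16 against 1.34 over all 1326 genes. The 2 of 7 apart are near the 21.3% of all genes. The 2 were Mki67, a mark of dividing cells, at 147, 208, 147 and 192 CPM in the tumor libraries and 48.8, 99.6 and 22.9 CPM in the controls, and the chromatin protein gene Hmgb2, at 399.8, 289, 288 and 289 CPM and 115, 130.2 and 95.3 CPM. Neither was above the ambient level in every tumor library. Mki67 was not apart after ambient subtraction, among cells with 85% to under 90% hemoglobin or with cells thinned to 1000 UMIs, and Hmgb2 not with the subtracted profile free of shared barcodes. Stmn1 and Tuba1b were not called, at 93.97 to 210.4 and 111 to 210.4 CPM against 38.1 to 161 and 68.6 to 107 CPM. Of 8 early progenitor genes, 3 reached the level needed for the comparison, 2 stood apart with the tumor libraries higher and 1 with the control libraries higher, and the median ratio was 2.91 against 1.34 over all 1326 genes, beside 21.3% and 6.64% of all genes. The pair higher in the tumor libraries was Car2 and Cpox, given above. Cpox passed the minimum level through the tumor libraries alone. Of the 2 genes over it on both sides, 1 was apart in each direction, at a median ratio of 1.675. Over all genes at that level the median ratio was 1.197. Kit, the receptor of early progenitors, had at most 26.7 CPM in any library. Apoe, which hepatocytes and macrophages also make, was higher in the controls at 2782, 4894 and 3014 CPM against 2146, 873, 977 and 1679 CPM, and turned the other way at a ratio of 3.69 once the ambient profile was subtracted. It was not apart without NEJ687 or NEJ709.

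Glycolysis, heat shock and interferon genes largely overlapped before ambient subtraction. Of 16 glycolysis and 2,3-BPG genes, 10 reached the level needed for the comparison, 0 stood apart with the tumor libraries higher and 0 with the control libraries higher, and the median ratio was 1.30 against 1.34 over all 1326 genes. Bpgm stood at 9554, 12758, 8789 and 7262 CPM in the tumor libraries and 5241, 8456 and 9616 CPM in the controls. Gapdh, Tpi1 and Ldha were at most 526 CPM in any library. Of 8 heat shock genes, 5 reached the level needed for the comparison, 0 stood apart with the tumor libraries higher and 0 with the control libraries higher, and the median ratio was 1.04 against 1.34 over all 1326 genes. Hspa8, Hsp90aa1, Hspe1 and Hspa1b were highest among them, and the first 3 had their highest level in NEJ634, at 799.6, 799.6 and 758 CPM. After ambient subtraction Gapdh and Ldha, 2 of 4 glycolysis genes still tested, were apart with the tumor libraries higher, at 5.95 and 3.32. So were Hspa8 and Hsp90aa1, 2 of 3 heat shock genes, at 2.83 and 9.78. Of all genes still tested 30.8% were apart in that direction, at a median ratio of 2.06. Before subtraction these 4 genes were above the ambient level in 0 of 7 libraries.

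Of 11 interferon response genes, 5 reached the level needed for the comparison, 0 stood apart with the tumor libraries higher and 1 with the control libraries higher, and the median ratio was 0.571 against 1.34 over all 1326 genes. The 1 of 5 stands beside 6.64% of all genes. Isg15, a ubiquitin-like protein that interferon induces, stood at 1494, 11298, 7552 and 3506 CPM in the tumor libraries and 649, 2382 and 2248 CPM in the controls and overlapped at NEJ634. Rsad2 (viperin) overlapped at 2242 to 4742 CPM and 2122 to 3190 CPM, as did Irf7 and Bst2 at 79.02 to 166 and 11.3 to 126 CPM against 55.8 to 253 and 94.1 to 253 CPM. Ifi27l2a was the gene apart with the controls higher, at 42.1, 26.9, 50.8 and 15.7 CPM and 174, 682 and 328 CPM, and it was not above ambient in every control library. Of 5 nuclear-retained RNAs, 2 reached the level needed for the comparison, 0 stood apart with the tumor libraries higher and 0 with the control libraries higher, and the median ratio was 0.874 against 1.34 over all 1326 genes. Malat1, which stays in the nucleus, was found at 1115, 2235, 1919 and 1725 CPM in the tumor libraries and 962, 2520 and 3159 CPM in the controls.

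**Figure D3:**
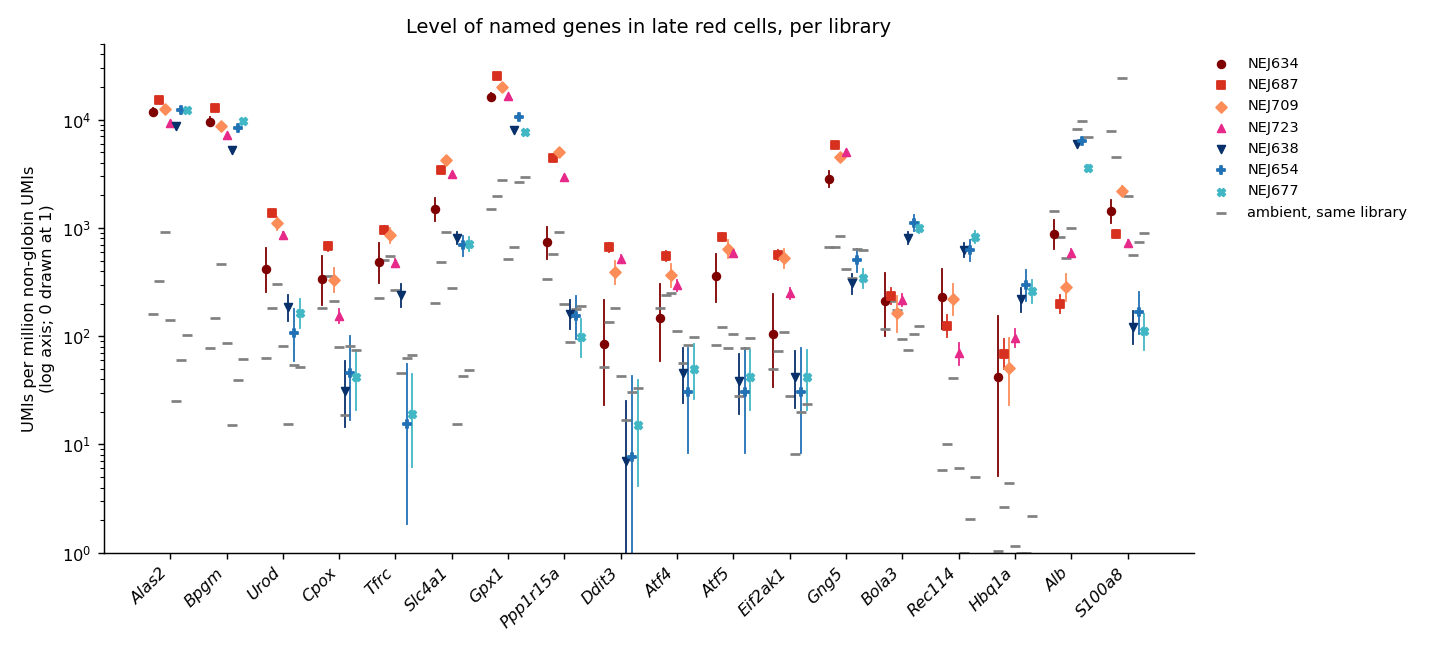
Levels of named genes in late red cells on a log axis of CPM over non-globin UMIs, 1 point per library with its exact 95% interval, and the ambient level of the same library as a dash. Ppp1r15a lay at 737 to 5057 CPM in the tumor and 99.1 to 160.4 CPM in the control libraries and Bola3 at 164 to 237 and 806 to 1118 CPM, Alas2 overlapped, and the hepatocyte gene Alb and the neutrophil gene S100a8 lay below their ambient dashes.

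Genes higher in the control libraries were of 2 kinds when read against the ambient profile. The 10 with the largest ratios in favor of the controls were Mup3, Serpina3k, Apoc3, Orm1, Cdo1, Akr1c6, Cyp2e1, Rida, Ces1c and Adh1, all genes of hepatocytes. Serpina3k, for example, had 0 UMIs in the 4 tumor libraries and stood at 690.4, 329 and 636 CPM in the controls, a ratio of at most 0.0173 against a floor of 3 UMIs per library. None of the 10 was above the ambient level in every control library, and the hepatocyte marker sum given above moved with them; their source was not tested. All 8 hepatocyte markers were apart in this direction, beside 6.64% of all genes. Of the 8, 4 passed the minimum level through the control libraries alone.

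The 13 genes above the ambient level in every control library were of another kind, and 10 of them are described after their values were seen. Bola3, which helps to pass iron-sulfur clusters to mitochondrial enzymes, stood at 210.4, 237, 164 and 218 CPM in the tumor libraries and 806, 1118 and 1006 CPM in the controls, against 73.9 to 124 CPM in the ambient profiles of the controls. Rec114, known for its part in meiotic recombination, stood at 232, 124, 220.1 and 69.4 CPM and 628, 620.4 and 827 CPM. Cox6c, a subunit of cytochrome c oxidase, stood at 694, 329, 282 and 354 CPM and 893, 1202 and 1375 CPM. These were apart without overlap, as was Hbq1a above. Ndufa1, a subunit of respiratory complex I, and Pet100, which helps to assemble cytochrome c oxidase, had ratios of 0.316 and 0.309. Serf2, the long noncoding RNA Oip5os1, the adaptor Grap2 and the phosphatase Cdc25b had ratios of 0.269, 0.214, 0.164 and 0.398. After ambient subtraction all 10 stayed apart in the same direction. They were picked as above ambient in every control library, and the rescaling after subtraction raises such genes. Hbq1a rose to 605, 671 and 473 CPM in the controls. The ambient shares of the controls were mostly the larger, so this outcome is no support. With all UMIs as the total Oip5os1, Serf2, Cox6c, Ndufa1 and Cdc25b were not apart, in cells with 85% to under 90% hemoglobin Oip5os1, Cox6c and Cdc25b were not, and with cells thinned to 1000 UMIs Grap2, Pet100 and Ndufa1 were not.

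The levels also varied with the hemoglobin share of the cells, which was not spread alike over the libraries. Cells with 80% to under 85% hemoglobin made up 78.9% of the late red cells of NEJ723, whereas cells with 90% to under 95% made up 64.7% in NEJ654 and 63.8% in NEJ677. From the first to the third of these ranges Ppp1r15a went from 7204 over 3616 to 468 CPM in NEJ687, and from 6868 over 3639 to 1868 CPM in NEJ709. Alas2 went the other way, from 11692 over 15654 to 22560 CPM in NEJ687 and from 4310 over 7528 to 13991 CPM in NEJ654. Bola3 was higher at higher hemoglobin in the controls, from 569 over 751 to 1217 CPM in NEJ638.

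Within the range of 85% to under 90%, which every library filled with at least 38 cells, the alpha globin share was 19.98, 20.9, 23.4 and 23.8% in the tumor libraries and 34.6, 25.3 and 28.7% in the controls, without overlap. Gng5 stood at 3595, 5765, 4518 and 5598 CPM and 331, 430.2 and 344 CPM there. Bola3 stood at 239.7, 239.8, 109.9 and 213 CPM and 751, 774 and 559.7 CPM. Both kept their sides. Ppp1r15a stood at 239.7, 3616, 3639 and 2159 CPM and 117, 258 and 64.6 CPM, so NEJ634 lay among the controls in this range and the gene was not apart. The value of NEJ634 came from 38 cells and is rough, and the other tumor libraries lay above every control. In this range 157 of 1395 genes tested were apart with the tumor libraries higher, 125 of them among the 282 found over all late red cells. With the controls higher 97 were apart, 56 of them among the 88. The median ratio over the genes tested was 1.16, so the excess on the tumor side was smaller than over all late red cells.

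**Figure D4:**
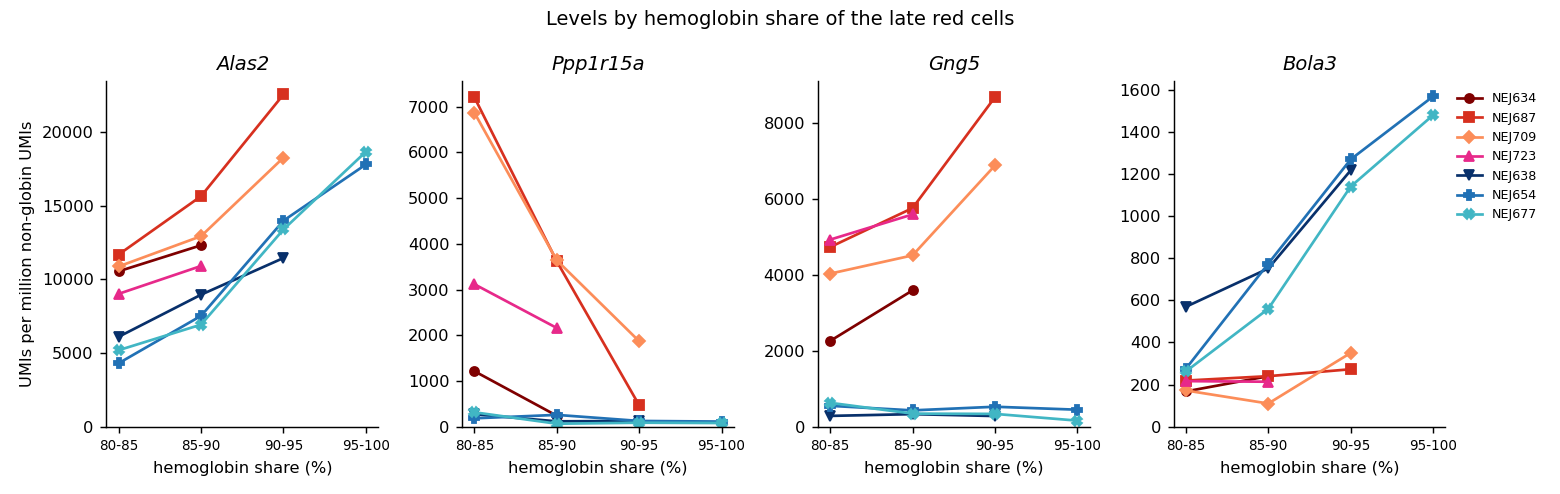
CPM of Alas2, Ppp1r15a, Gng5 and Bola3 in late red cells by hemoglobin share, in ranges of 5 percentage points with at least 10 cells, 1 line per library. Alas2 was higher and Ppp1r15a in NEJ687 and NEJ709 lower at higher hemoglobin, and Gng5 kept tumor and control libraries apart in each range that held both.

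Late red cells were then set against the barcodes with 50% to under 80% hemoglobin in the same library, which by the same measure carry less hemoglobin RNA. These numbered 157, 1328, 210 and 3607 in the tumor libraries and 224, 40 and 71 in the controls. Of 1888 genes, 49 were higher in late red cells in all 7 libraries with a median ratio of at least 2 (2.60%) and 471 were lower by the same measure (24.9%). The comparison barcodes of the controls also held other cells. T and NK cell markers were at 1314, 4567 and 1992 CPM there and B cell markers at 1126, 924 and 1301 CPM, against at most 379.7 CPM for either in the ambient profiles of the controls. Endothelial markers stood at 4549 and 4135 CPM in NEJ654 and NEJ677, and neutrophil markers at 6101 CPM in NEJ638 against 1740 CPM in its ambient profile. With only the 5 libraries that had at least 100 such barcodes, NEJ638 among them, 37 of 1770 genes were higher (2.09%) and 634 lower (35.8%). The rule chose both sets on hemoglobin, so these are descriptions, and the genes named from the lists in them were chosen after their values were seen.

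Genes of clearance and remodeling were among those higher. Of 17 tested, 6 were higher and 1 was lower, with a median ratio of 1.52 against 0.638 over all genes. Over all genes 2.60% were higher and 24.9% lower. The 6 were Gabarapl2, Bnip3l, Mkrn1, Ube2l6, Ube2o and Map1lc3b, at median ratios of 3.22, 2.87, 2.59, 2.50, 2.41 and 2.25. In the 5 libraries with more comparison barcodes 5 were higher and 3 lower, beside 2.09% and 35.8% of all genes. The 8 hepatocyte markers had a median ratio of 2.01, with Apoa1 (2.07) called higher and Alb (1.89) higher in 7 of 7 libraries, and their part in the result was not tested. Alas2 and Bpgm were higher as well, at 2.89 and 3.22, as were Epb41, Tent5c and Isg20 at 2.38, 2.84 and 2.17. In the iron list Slc25a39, Ftl1, Ncoa4, which brings ferritin to the lysosome, and Iscu, a scaffold for iron-sulfur clusters, were higher at 2.45, 2.08, 2.26 and 2.72, while Tfrc and Slc25a38 were lower at 0.267 and 0.233.

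Over the 7 libraries, those lists of red cell biology with most of their tested genes lower in late red cells were those of heat shock, given below, of division, of nuclear RNA and of erythroid factors, whereas 0 of 3 early progenitor genes were lower. Over the 5 libraries with more comparison barcodes, where 35.8% of all genes were lower, this also held for late erythroid genes of other roles (11 of 17), membrane genes (13 of 22) and heme synthesis (4 of 7). Over 7 libraries these had 4 of 17, 9 of 22 and 3 of 7 lower, beside 24.9% of all genes. Of 14 cell cycle genes, 10 were lower and 0 higher, with Cenpf at 0.0657, Ccnb2 at 0.0894 and Mki67 at 0.113. Of 10 erythroid factors, 7 were lower, among them Tal1 at 0.162 and Klf1 at 0.249. Malat1 and Neat1 were lower at 0.0634 and 0.120. In heme synthesis Alad and Ppox were lower at 0.180 and 0.341. Of 22 membrane genes, 9 were lower, with Ermap at 0.0832, Kel at 0.145 and Rhd at 0.171. These counts include genes with 0 UMIs in the late red cells of a library, where the direction is not shown. With such a library set to 3 UMIs for the direction too, 449 genes were lower (23.8%). Gata1, Uros, Slc43a1, Rrm2, Dedd2 and Hk1 were no longer among them. This left 6 erythroid factors, 8 membrane genes, 9 cell cycle genes, 3 late erythroid genes of other roles and 2 genes of heme synthesis.

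Some stress genes were lower too, against 24.9% of all genes and a median ratio of 0.638 over them. Of 8 integrated stress response genes, the 4 lower ones were Atf4, Ddit3, Ppp1r15a and Sesn2, at 0.416, 0.480, 0.320 and 0.310. Of 7 heat shock genes, 6 were lower, with Hspa1b at 0.179 and Hsp90aa1 at 0.312. The median ratio of the stress response list was 0.333, 0.464, 0.526 and 0.567 in the tumor libraries and 0.243, 0.355 and 0.480 in the controls. For heme synthesis the medians were 0.250, 0.427, 0.341 and 0.375 and 0.223, 0.845 and 1.06, so NEJ638 lay with the tumor libraries and NEJ654 and NEJ677 lay above them.

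**Figure D5:**
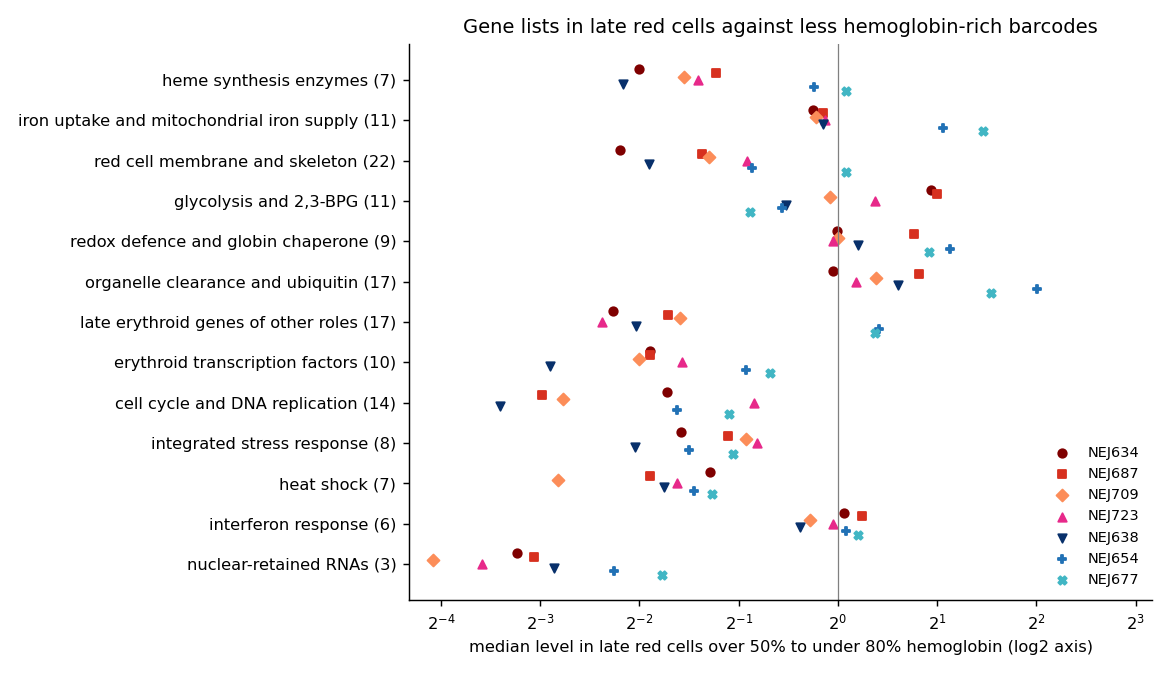
Median ratio of each gene list in late red cells over barcodes with 50% to under 80% hemoglobin, 1 point per library, on a log2 axis with the number of genes in brackets. Division, heat shock and nuclear RNA lists lay below 1 in every library, and clearance genes lay at 0.969 to 4.01.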

How the data were processed

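Single-cell RNA was measured in 7 libraries of mouse liver. The deposited values are raw UMI counts for each barcode over 32285 genes, neither normalized nor limited to called cells. Per the file headers they came from Cell Ranger 4, whereas the submitters' processing notes name version 6.0, and the genome build is not given in the sources used here. Late red cells were taken by the limits given above, with 8 Hba- and Hbb- genes. No doublet caller was run. UMIs were summed per library and divided by the non-globin total, and a library at 0 was set to 3 UMIs where a ratio was taken. The ambient share came from 55 markers of 8 other cell types, with UMIs of the ambient profile subtracted in proportion. Levels after subtraction were taken over the non-globin UMIs that remained. Poisson and Clopper-Pearson intervals were exact.

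The labels gave 0 groups, so values were compared by overlap. The members and lists were chosen with earlier results of these data known. Named genes were the markers, the globins, up to 4 of each list by median level, any listed gene that was apart, and the 10 largest ratios in each direction. Alternatives changed the limits on cells, the total, weighting, thinning to 1000 UMIs, the ambient profile and the libraries. The ambient-level requirement, the profile without shared barcodes, the window of 85% to under 90%, the total of all UMIs, the limit of 10% mitochondrial UMIs, the removal of shared barcodes, the minimum level on each side, the floor applied to overlap and direction and the minimum of 100 comparison barcodes were chosen after the data had been seen. The comparison step was tested on simulated data with 200 changed genes. The scripts ran under Python 3.11.15 (pandas 2.3.3, scipy 1.17.1, numpy 2.4.6, matplotlib 3.10.9). Some genes are not reported here. Sequencing reads were not used here.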

Additional observations from a re-analysis of the deposited data

Results flagged for a closer look

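Of 26 measures compared over the 7 libraries, 2 had a library that stood apart from the other 6 by more than Dixon's limit of 0.568, and chance gives about 1 in 20. The median mitochondrial share of late red cells was 5.32% in NEJ638, against at most 1.29% in the rest. The summed level of the heat shock genes was 2609 CPM in NEJ634, the highest of all libraries. Signal was also found below the limit on UMIs: 93 barcodes with 500 to 1000 UMIs had at least 80% hemoglobin UMIs, of which 0, 29, 0 and 8 were in the tumor libraries and 45, 3 and 8 in the controls.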

How the results depend on the processing

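The number of late red cells, 5032, was 3176 with at least 85% hemoglobin and 1418 with at least 90%. The alpha globin gap was 2.70 points with equal weight per cell and 3.64 with at least 90% hemoglobin, and tumor and control libraries did not overlap under any of 4 alternatives. Genes apart numbered 370 in all, 282 higher in the tumor and 88 in the control libraries, of which 44 were in the lists. They numbered 603, 554, 49 and 67 with all UMIs as the total. At a minimum of 20 CPM they were 675, 467 and 208, and at 200 CPM 150, 118 and 32, with 23 in the lists. With at least 50 CPM on each side they were 186, 148 and 38, with 25 in the lists. Above the ambient level they were 179, 166 and 13. Without mitochondrial UMIs 204 were higher in the tumor and 168 in the control libraries. Genes higher in the controls numbered 47 after ambient subtraction and 48 with the profile free of shared barcodes, where 26 of the lists were apart. In the window of 85% to under 90%, 157 of 1395 genes were higher in the tumor and 97 in the control libraries, and 25 of the lists were apart.

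With 1 library left out at a time, genes apart ranged from 336 to 516, those higher in the tumor libraries from 242 to 385, those higher in the controls from 82 to 174 and those of the lists from 34 to 54. The controls' count was 174 without NEJ634 and 165 without NEJ638. The comparison with less hemoglobin-rich barcodes ranged from 514 to 582 in all, 41 to 65 higher and 463 to 526 lower. The higher count was 88 against 30% to under 80% and 74 without mitochondrial UMIs. Of named genes, Rbm38 reversed to 0.911 in the 85% window, and Apoe to 3.69 and 3.85 after subtraction of either profile. The causes were not tested. No paired analysis was possible because the labels give no groups or replicate numbers. Depth limits NEJ634 most, with 47521 non-globin UMIs.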

Other observations

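The transgene is a human MYC in the hepatocyte lineage, and the mouse gene Myc, chosen here after its values were seen, was near 0 in late red cells, at 42.1, 11.8, 0 and 9.25 CPM in the tumor libraries and 10.5, 0 and 0 CPM in the controls. Gt(ROSA)26Sor, a noncoding transcript of the Rosa26 locus also picked after its values were seen, stood at 126, 156, 412 and 415 CPM in the tumor libraries and 80.2, 0 and 3.81 CPM in the controls. It was above its ambient level in 2 of 7 libraries. The study also calls the CAG-MYC strain R26StopFLMYC, a name that points to the Rosa26 locus. The mice may thus differ in genotype at this locus, and any effect on the transcript was not tested.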
